A study of Cavia porcellus with 12 samples.

Results

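Hepatic stellate cells are the vitamin A storing pericytes of the liver sinusoid. On injury they lose their retinoid droplets, take up a contractile phenotype and lay down matrix, and are then called myofibroblasts. Platelet-derived growth factor (PDGF) is the best known mitogen of these cells. Here, 9 genes that stand for these states were followed in the livers of guinea pigs with nonalcoholic steatohepatitis (NASH) and controls: *LRAT* for retinoid storage, *PDGFRA* and *PDGFRB* for the PDGF receptors, *ACTA2*, *TAGLN* and *DES* for the contractile cytoskeleton, *RGS5* for pericyte signalling, and *SPARC* and *POSTN* for the matricellular proteins, which are secreted into the matrix and act on cells. The genes were chosen by name, with earlier results of these data known, and kept where the deposited table held their symbol. All 9 were among its 11896 human orthologue symbols, and each was alone on its count row.

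The animals were female guinea pigs (strain label Dunkin Hartley), 10 weeks old on arrival. They received either chow (4% fat, no sucrose, no cholesterol) or a high-fat diet (20% fat, 15% sucrose, 0.35% cholesterol) for 25 weeks. The 6 NASH animals were high-fat-fed animals picked for bridging fibrosis, whereas the 6 controls were drawn at random from chow-fed animals free of NASH and fibrosis, so diet and disease cannot be told apart, nor can milder disease be assessed. mRNA of the left lateral lobe was sequenced in each animal, and the animals are named by the numbers of their labels (controls 5, 10, 31, 32, 45 and 56; NASH 2, 9, 11, 20, 41 and 65). The livers had not been perfused.

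The control libraries held 16980274 to 28636467 counts in total, and the NASH libraries 23704607 to 33091460. Levels are given as CPM, the count relative to the library size as scaled by the TMM factors of edgeR, and differences as log2 fold change (log2FC), NASH against control, with its standard error (SE). A gene was called when the Benjamini-Hochberg adjusted p of the quasi-likelihood test of edgeR over all 11896 symbols was under 0.05. The groups differed widely: 53.9% of all symbols were called, 27.9% higher and 26.0% lower in NASH, and in 33.7% the CPM of the groups did not overlap. The TMM factors themselves differed between the groups, at 0.8036 to 0.8754 in controls and 1.116 to 1.241 in NASH. With library size alone the median log2FC of all genes moved from 0.002 to 0.48, and the split from 3318 higher and 3093 lower to 7603 higher and 911 lower. Differences are therefore to be read relative to the bulk of the genes.

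Of the 9 genes, 7 were called. *PDGFRA*, *PDGFRB*, *ACTA2*, *RGS5* and *SPARC* were higher in NASH, *LRAT* and *POSTN* were lower, and *TAGLN* and *DES* were not called. The groups did not overlap in 5 of the 9 (*PDGFRA*, *PDGFRB*, *RGS5* and *SPARC* above, *LRAT* below the controls). In view of the percentages above, a call is common among genes of any kind here, so the count of 7 says little about these genes as a set; the direction and size of each are given in turn. Of the 5 genes usually taken as signs of activation, *PDGFRB*, *ACTA2* and *SPARC* were higher, *POSTN* was lower and *TAGLN* was not called. In whole tissue, a change in the number of stellate cells and a change in RNA per cell cannot be told apart.

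**Figure D1:**
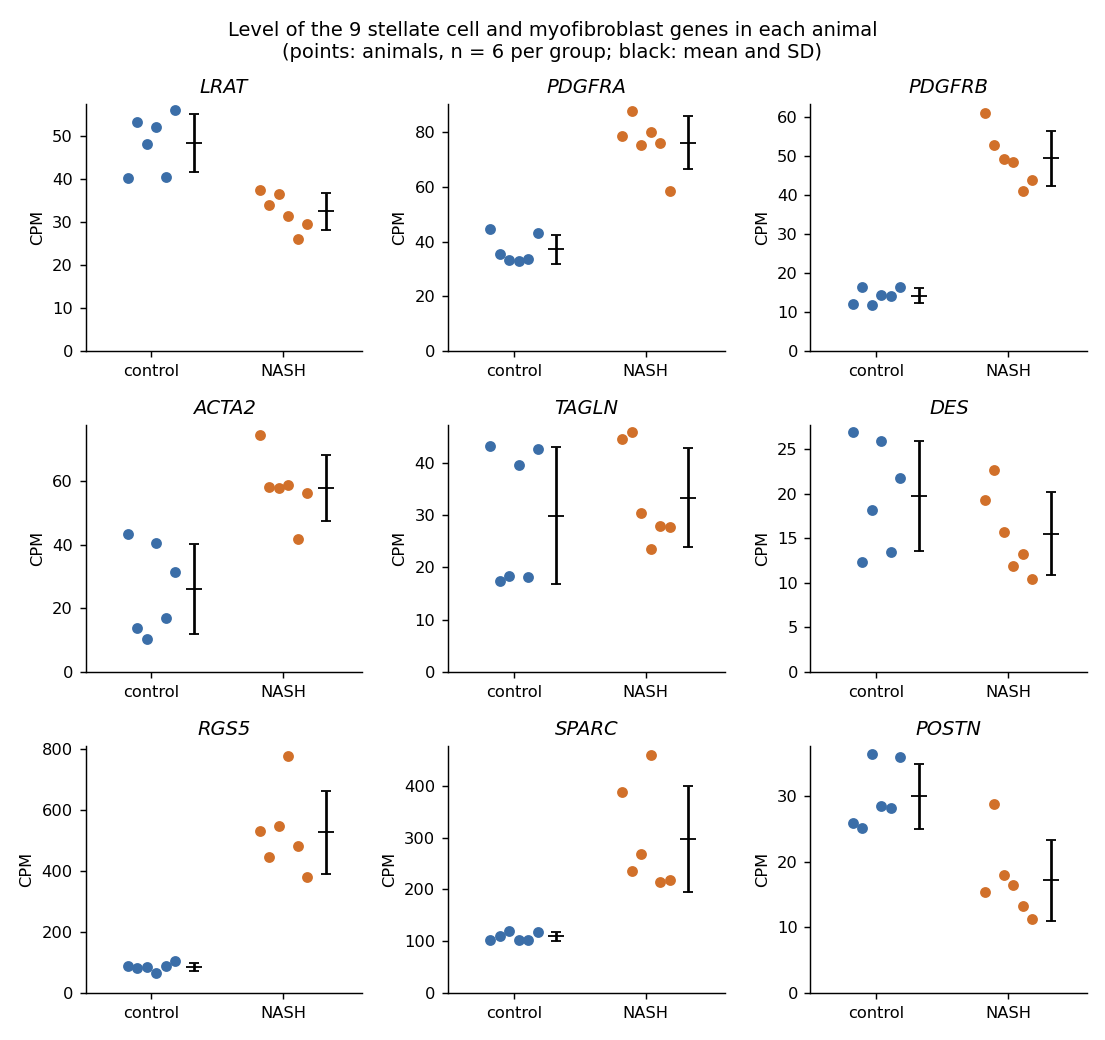
Level (CPM, linear axis from 0) of each of the 9 genes in the 6 control and 6 NASH animals, with one point per animal and the group mean and SD in black. *RGS5* lay between 65.5 and 105 CPM in controls and between 381 and 776 CPM in NASH, whereas *TAGLN* and *DES* overlapped between the groups.

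*LRAT*, the enzyme that esterifies retinol for storage and the gene most closely tied to the vitamin A storing state, was lower in NASH. Control animals had between 40.2 and 56 CPM (median 50), and NASH animals between 26.0 and 37.4 CPM (median 32.8). All 6 NASH animals lay below the lowest control. The log2FC was −0.57 (SE 0.11, 95% interval −0.79 to −0.35, adjusted p = 0.00082 by edgeR), or 0.672 of the control level. *LRAT* varied little between animals, with a coefficient of variation (CV) of 13.9% in controls and 13.3% in NASH. With library size alone the difference was −0.10 (adjusted p = 0.484), while relative to the median of all genes it was −0.58 with either scaling. The latter agreement is built in, because a change of scaling moves all genes by nearly the same amount.

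A list of genes of retinoid storage and stellate cell quiescence held genes that were higher as well as genes that were lower. Of 19 listed genes 15 were analysed, of which 4 were higher, 6 lower and 5 not called, with a median log2FC of −0.17 against 0.002 over all genes. Without *LRAT* itself, 4 of 14 were higher and 5 lower, and the median was 0.08. The median of the 15 was −0.09 without NASH animal 20, −0.10 without control 31, −0.04 on rlog values and 0.31 with library size alone. *RDH10*, which oxidises retinol, fell by 0.81 on the log2 scale (SE 0.23, adjusted p = 0.0103), but at only 14 to 31 counts per animal. In the opposite direction, *CYGB*, the globin of stellate cells, was at 0.538 to 1.68 CPM in controls and at 9.72 to 24.2 CPM in NASH, a log2FC of 3.90 (SE 0.29, adjusted p = 4.19e-07). No NASH animal overlapped a control in *CYGB* or *RDH10*. The lectins *COLEC10* and *COLEC11* were lower by a similar amount to *LRAT*, with log2FC of −0.61 and −0.52, whereas *RELN*, which encodes the secreted glycoprotein reelin, was higher (0.61). *NGFR*, *HGF*, *LHX2*, *HAND2* and *BAMBI* were not called, with log2FC between −0.21 and 0.47. *STRA6*, *GATA4*, *GFAP* and *PTH1R* were not analysed here.

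Both PDGF receptors, through which these cells are driven to divide and migrate, were higher in NASH. *PDGFRB*, the receptor for the PDGF B chain, was at 11.8 to 16.4 CPM in controls (median 14.3) and at 40.9 to 60.9 CPM in NASH (median 48.8). The lowest NASH animal (41) was thus well above the highest controls (10 and 56). The log2FC was 1.79 (SE 0.12, 95% interval 1.57 to 2.02, adjusted p = 1.75e-07), a 3.47-fold difference. *PDGFRA*, the receptor that also binds the A chain, was at 32.9 to 44.7 CPM in controls (median 34.7) and at 58.5 to 87.7 CPM in NASH (median 77.3). Again no NASH animal reached down to the controls, and the log2FC was 1.03 (SE 0.11, 95% interval 0.82 to 1.25, adjusted p = 7.03e-06). Within each animal, the log2 ratio of *PDGFRB* to *PDGFRA* was −1.87 to −1.11 in controls and −0.90 to −0.37 in NASH, a difference in means of 0.76. Such a ratio holds the lengths of both genes, so only its difference between groups can be read. It does not depend on the library scaling.

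The ligands were higher as well. Of 9 genes listed for the PDGF pathway 8 were analysed, 7 of which were higher, 0 lower and 1 not called, with a median log2FC of 1.12. Without the 2 receptors, 5 of 6 were higher and the median was 1.08. *PDGFA* rose from a median of 13.5 to 29.9 CPM (log2FC 1.20, SE 0.13, adjusted p = 6.24e-06). *PDGFB* was at 0.357 to 1.40 CPM in controls and 4.20 to 6.55 CPM in NASH (2.39, SE 0.24, adjusted p = 4.97e-06). *PDGFD*, whose product also acts on the beta receptor, rose by 2.1 (SE 0.22, adjusted p = 5.92e-06). The groups did not overlap in any of these 3 ligands. *PDGFRL*, a receptor-like protein, and *PLAT*, the tissue plasminogen activator, which cleaves the C chain, were higher by 0.96 and 0.67. *NRP1*, a co-receptor, was not called, at 121 to 198 CPM in controls and 141 to 188 CPM in NASH (log2FC −0.02, SE 0.12, adjusted p = 0.875). *PDGFC* was not analysed here.

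Of the 3 contractile genes only *ACTA2* was called, and it was higher in NASH. *ACTA2*, the smooth muscle actin by which myofibroblasts are usually recognised, was at 43.4, 13.8, 10.5, 40.6, 16.9 and 31.4 CPM in controls 5, 10, 31, 32, 45 and 56, and at 74.6, 58.2, 57.8, 58.9, 41.8 and 56.2 CPM in NASH animals 2, 9, 11, 20, 41 and 65. The controls spread over a wide range (CV 54.7%) and the NASH animals over a narrow one (CV 18%). The groups overlapped only in that NASH animal 41 lay below control 5. The log2FC was 1.15 (SE 0.33, 95% interval 0.52 to 1.79, adjusted p = 0.00948), with the widest standard error of the 9 genes. Reads that mapped to several places were ignored by the authors, which could affect *ACTA2* and the near-identical *ACTG2*.

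*TAGLN*, the actin-binding protein transgelin, was at 43.2, 17.3, 18.3, 39.6, 18.2 and 42.5 CPM in the controls in the same order, and at 44.5, 45.8, 30.4, 23.4, 27.9 and 27.7 CPM in NASH. The medians were 29.0 and 29.1 CPM. The log2FC was 0.16 (SE 0.28, adjusted p = 0.658), and its 95% interval of −0.40 to 0.72 leaves room for a moderate change either way. *DES*, the intermediate filament desmin, was at 26.9, 12.3, 18.1, 25.9, 13.5 and 21.7 CPM in controls and at 19.3, 22.6, 15.7, 11.9, 13.2 and 10.4 CPM in NASH. The log2FC of *DES* was −0.35 (SE 0.24, 95% interval −0.81 to 0.12, adjusted p = 0.237), and with library size alone it was 0.14 (adjusted p = 0.622). Controls 5, 32 and 56 were the 3 highest controls in *ACTA2*, *TAGLN* and *DES* alike.

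The log2 ratio of *ACTA2* to *TAGLN* within an animal was −0.80 to 0.03 in controls and 0.35 to 1.33 in NASH, so that every NASH animal had more *ACTA2* for its *TAGLN* than every control. The same held for *ACTA2* over *DES*, at −0.79 to 0.69 in controls and 1.36 to 2.42 in NASH. For *TAGLN* over *DES* the groups overlapped, with means of 0.53 ± 0.32 in controls and 1.10 ± 0.17 in NASH (SD, n = 6). Relative to *PDGFRB*, both *TAGLN* and *DES* were lower in every NASH animal than in any control. The mean log2 ratio of *DES* to *PDGFRB* went from 0.42 ± 0.58 to −1.70 ± 0.31, and that of *TAGLN* to *PDGFRB* from 0.95 ± 0.70 to −0.60 ± 0.28 (SD, n = 6). These ratios were described only, and no test was run on them.

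**Figure D2:**
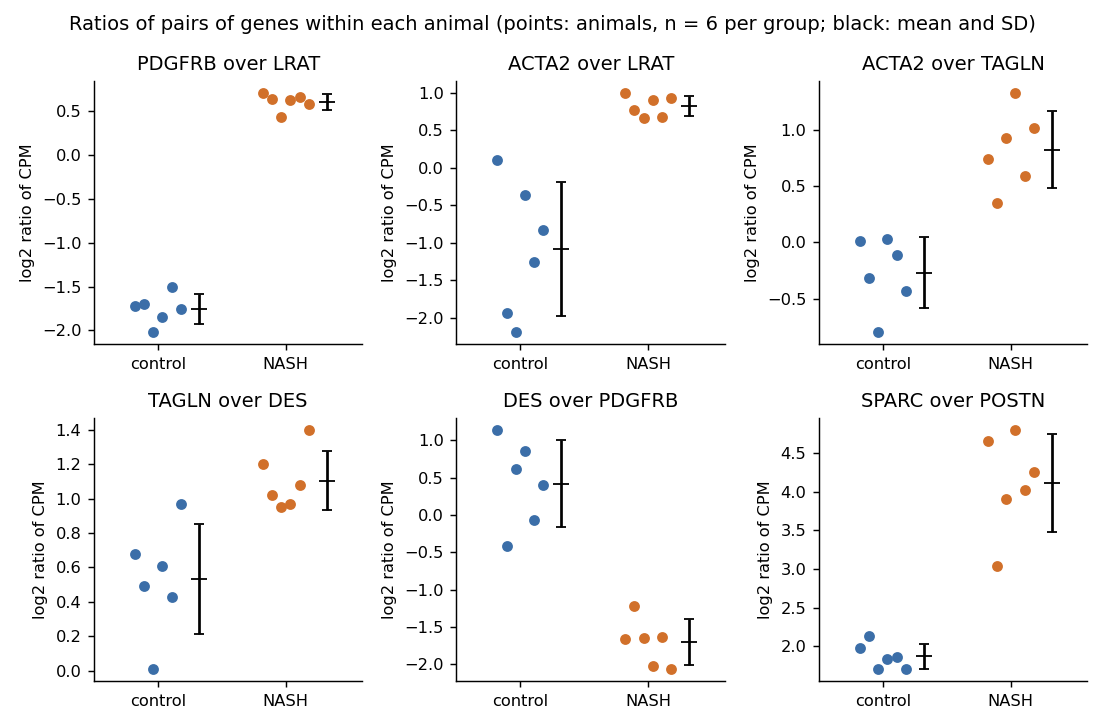
Log2 ratio of the CPM of gene pairs within each animal, with one point per animal and the group mean and SD in black (n = 6 per group; axes do not start at 0). The groups lie apart in 5 of the 6 pairs drawn and overlap for *TAGLN* over *DES*.

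The spread of the controls was looked at further in 19 of 20 listed genes of the contractile apparatus. Animals 5, 32 and 56 were the 3 highest controls in 10 of these 19 genes (52.6%), as against 486 of all 11896 genes (4.09%); this order was noticed in *ACTA2*, *TAGLN* and *DES* first, and is given as a description. Without these 3, it held in 7 of 16 contractile genes (43.8%), namely *CNN1*, *MYL9*, *ACTG2*, *LMOD1*, *VCL*, *SYNPO2* and *CSRP1*. The clearest case was *ACTG2*, the enteric smooth muscle actin, at 10.9, 12.3 and 7 CPM in controls 5, 32 and 56 and at 0.513, 0 and 3.46 CPM in controls 10, 31 and 45. *CNN1*, which encodes calponin, was at 2, 1.88 and 1.62 CPM in the former and at 0.410, 0 and 1.11 CPM in the latter, from 28 counts or fewer in all controls but animal 32 (41 counts). *MYL9*, the regulatory light chain of smooth muscle myosin, was at 22.9, 21.2 and 17.6 CPM against 11.9, 11.2 and 12.1 CPM. The sums of endothelial genes and of pericyte and vessel wall genes did not follow this order. The summed CPM of 10 endothelial genes was 586, 778 and 794 in controls 5, 32 and 56 and 722, 740 and 687 in controls 10, 31 and 45, and that of 10 pericyte and vessel wall genes was 163, 140 and 231 against 177, 202 and 161. *STAB2* and *LYVE1* (control means 208 and 118 CPM) weighed most in the former, *RGS5* and *MCAM* (85.8 and 54.6 CPM) in the latter. These sums do not measure the smooth muscle of vessel walls. What set the order of the controls was not tested. Control 5 had the lowest summed macrophage genes of all animals (424 CPM).

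**Figure D3:**
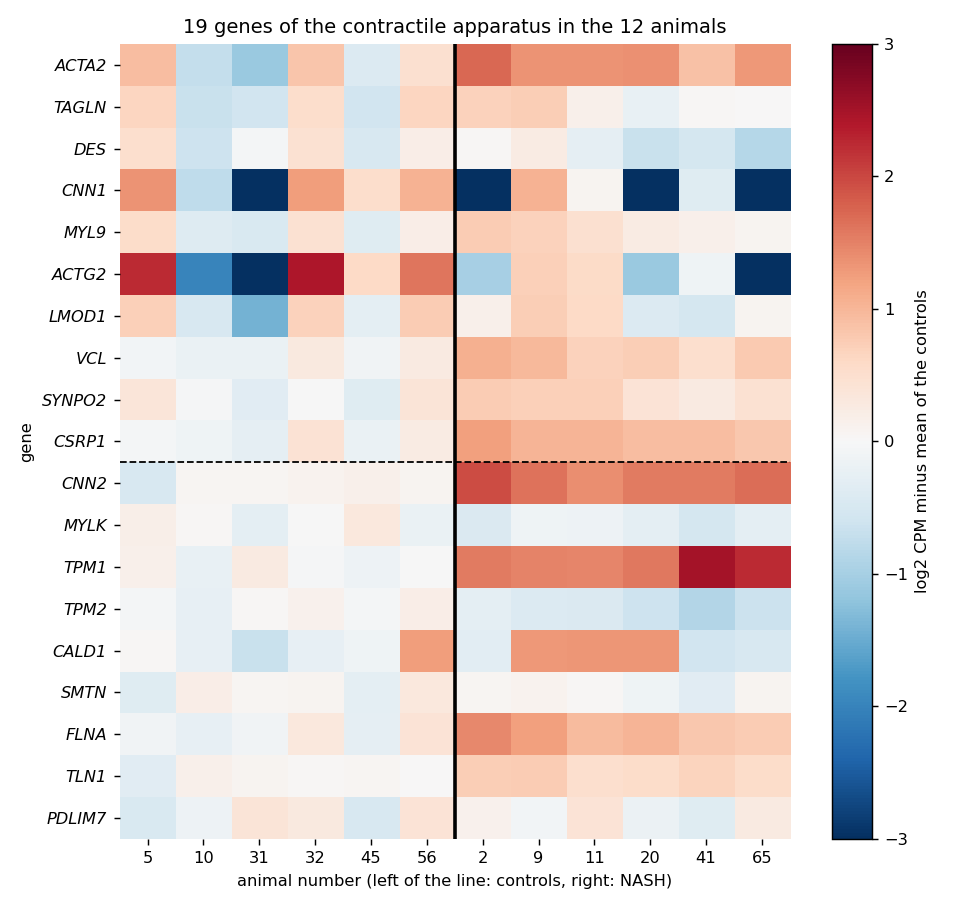
Log2 CPM of 19 contractile genes in each animal, minus the mean of the 6 controls (colour limited to 3 in either direction). Above the dashed line are the 10 genes in which animals 5, 32 and 56 are the 3 highest controls; the blocks of *TPM1*, *CNN2*, *FLNA* and *CSRP1* to the right of the vertical line are red in all 6 NASH animals, unlike those of *TAGLN* and *DES*.

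As a list, the contractile genes had 8 higher, 2 lower and 9 not called, with a median log2FC of 0.37. Without *ACTA2*, *TAGLN* and *DES*, 7 of 16 were higher and 2 lower (median 0.45). *TPM1*, the tropomyosin found in many cell types, was at 77.1 to 108 CPM in controls and at 248 to 509 CPM in NASH (log2FC 1.86, SE 0.19, adjusted p = 6.08e-06). *CNN2* (1.63), *FLNA* (1.03), *CSRP1* (0.97), *VCL* (0.79), *TLN1* (0.62) and *SYNPO2* (0.55) completed the higher ones together with *ACTA2*. *CNN2*, *FLNA*, *VCL* and *TLN1* encode a calponin, filamin, vinculin and talin, which also serve in non-muscle cells. *TPM2*, another tropomyosin, fell by 0.54 (SE 0.11, adjusted p = 0.000857), from a median of 50.4 to 35.2 CPM, and *MYLK*, the myosin light chain kinase, fell by 0.32. *MYL9*, *CNN1*, *ACTG2*, *LMOD1*, *SMTN*, *CALD1* and *PDLIM7* were not called, as was the case for *TAGLN* and *DES*. Of the latter, *ACTG2* (−1.59, SE 0.94) and *CNN1* (−1.19, SE 1.0) had wide errors and at least 1 animal with 0 counts in each group. *MYH11* was not analysed here.

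Serum response factor (SRF) and its co-activators drive many of these contractile genes. Of 7 listed symbols, which include older names of the same genes, 4 were analysed; 3 were higher and 1 was not called. *SRF* was higher by 0.86 (SE 0.14, adjusted p = 0.000184), on a count row that it shares with another symbol. *MRTFA* and *MRTFB*, the actin-regulated co-activators, were higher by 0.63 (SE 0.13, adjusted p = 0.000947) and 0.61 (SE 0.18, adjusted p = 0.0115). *TEAD1* had a log2FC of 0.58 with an SE of 0.42 (adjusted p = 0.27).

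*RGS5*, a regulator of G-protein signalling that marks pericytes, had the largest difference of the 9 genes. It was at 65.5 to 105 CPM in controls (median 86.7) and at 381 to 776 CPM in NASH (median 506). Even NASH animal 65, the lowest, lay far above control 56, the highest. The log2FC was 2.62 (SE 0.17, 95% interval 2.29 to 2.95, adjusted p = 1.69e-07), or 6.14-fold, at rank 360 of 11896 when all genes are ordered from the largest rise. The log2 ratio of *RGS5* to *PDGFRB* was 2.19 to 2.85 in controls and 3.08 to 4.0 in NASH.

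Of 13 listed pericyte genes, 10 were analysed, *RGS5* included, of which 6 were higher, 0 lower and 4 not called (median log2FC 0.81). Without *RGS5*, 5 of 9 were higher and the median was 0.50. *RGS4*, a close relative of *RGS5*, was at 0 to 4 counts in the controls and 15 to 105 counts in NASH (0.51 to 3.27 CPM), a fitted log2FC of 4.39 (SE 0.71, adjusted p = 0.000194) that depends on the low control counts. *CD248*, endosialin, was higher by 2.01 (SE 0.57, adjusted p = 0.00921) at no more than 53 counts. *HEYL* (1.20), *KCNJ8* (0.50) and *ANGPT1* (0.42) were also higher. *NOTCH3* had a log2FC of 1.12 (SE 0.58, adjusted p = 0.119), and *CSPG4*, *MCAM* and *NDUFA4L2* had values between −0.12 and 0.28 without being called.

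The 2 matricellular members went in opposite directions. *SPARC*, a collagen-binding glycoprotein also called osteonectin, was at 102 to 120 CPM in controls (median 106) and at 215 to 460 CPM in NASH (median 252). The controls were tightly grouped (CV 7.44%), whereas NASH animals 20 (460 CPM) and 2 (389 CPM) stood above the other 4 (215 to 269 CPM). The log2FC was 1.45 (SE 0.19, 95% interval 1.09 to 1.82, adjusted p = 3.32e-05). *POSTN*, periostin, was at 25.1 to 36.4 CPM in controls (median 28.2) and at 11.3 to 28.7 CPM in NASH (median 15.9). It was thus lower in NASH, by 0.80 on the log2 scale (SE 0.20, 95% interval −1.19 to −0.41, adjusted p = 0.00443). The groups overlapped only through NASH animal 9, at 28.7 CPM, the other 5 NASH animals being at 18 CPM or less. Without animal 9 the log2FC of *POSTN* was −1.01 (adjusted p = 0.000119), and with library size alone it was −0.33 (adjusted p = 0.162). The log2 ratio of *SPARC* to *POSTN* was 1.71 to 2.13 in controls and 3.04 to 4.80 in NASH.

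Among 14 of 22 listed matricellular symbols that were analysed, the list again holding older names, 10 were higher, 2 lower and 2 not called (median log2FC 1.25). Without *SPARC* and *POSTN*, 9 of 12 were higher and 1 lower (median 1.46). *SPARCL1*, the relative of *SPARC*, rose from a median of 126 to 526 CPM (1.88, SE 0.15, adjusted p = 6.96e-07). *THBS1*, thrombospondin 1, which can activate latent TGF-β, was at 7.44 to 14.2 CPM in controls and 121 to 213 CPM in NASH (4.06, SE 0.21, adjusted p = 6.86e-08). *CCN5*, *CCN1*, *THBS2*, *SPP1*, *SMOC2*, *CCN2* and *TGFBI* were higher by between 0.38 and 3.50. *SMOC1* was the other gene that fell, by 1.0 (SE 0.17, adjusted p = 0.000308), from a median of 43.0 to 24.2 CPM. *TGFBI*, a paralogue of *POSTN*, was higher by 0.38 (SE 0.08, adjusted p = 0.00103). *FSTL1* (−0.42, SE 0.45) and *HTRA1* (0.29, SE 0.12) were not called.

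**Figure D4:**
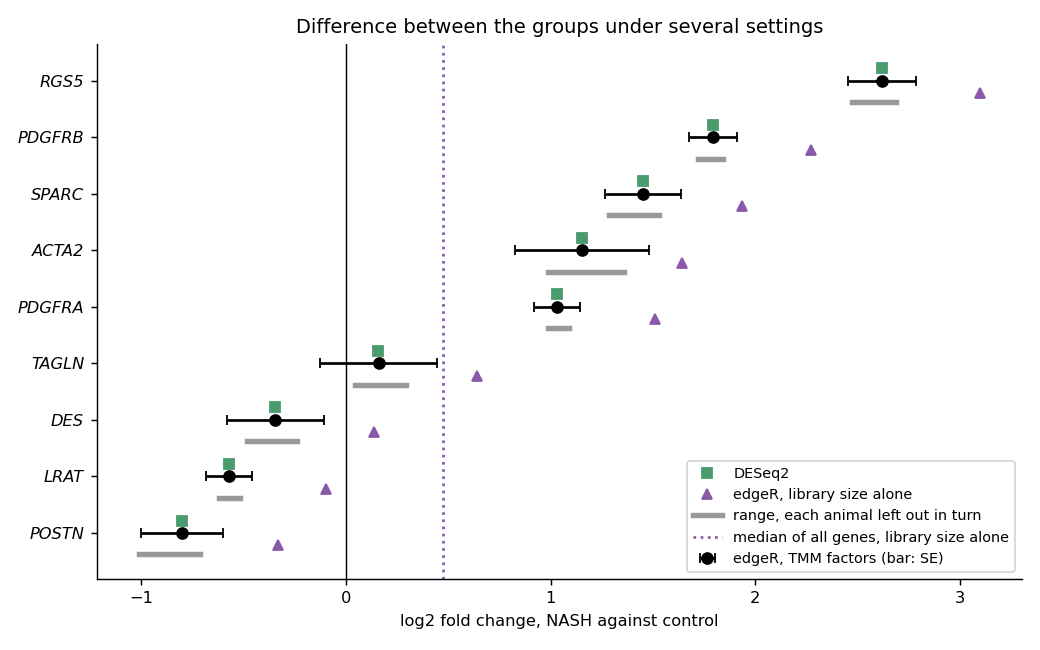
Log2FC of each gene, NASH against control, by edgeR with TMM factors (black, bar SE), DESeq2 (green) and edgeR with library size alone (purple, the dotted line being the median of all genes at 0.48), and its range when each animal was left out in turn (grey). The order of the genes, from *RGS5* at 2.62 to *POSTN* at −0.80, is the same under each tool drawn, and library size alone moves all of them to the right by a like amount, which takes *DES* across 0.

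The ratios of *PDGFRB* and *ACTA2* to *LRAT* also lay apart between the groups; those of the other activation genes were not computed. The log2 ratio of *PDGFRB* to *LRAT* was −2.02 to −1.50 in controls and 0.43 to 0.70 in NASH, with means of −1.76 ± 0.17 and 0.60 ± 0.09 (SD, n = 6). The ratio of *ACTA2* to *LRAT* was −2.19 to 0.11 in controls and 0.67 to 1.0 in NASH. The SD of the latter ratio was 0.90 in controls and 0.14 in NASH.

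Most fibroblast matrix genes analysed were higher. Of 13 listed 9 were analysed, and 8 were higher with no overlap between the groups, 0 lower and 1 not called (median log2FC 2.01). *COL1A1* was at 3.44 to 12.3 CPM in controls and 86.6 to 232 CPM in NASH (4.21, SE 0.39, adjusted p = 2.76e-06). *LOXL1* (2.70), *COL1A2* (2.57), *TIMP1* (2.20) and *COL3A1* (2.01) came next in size. NASH animals 20 and 2, which had the highest *SPARC*, also had the highest *COL1A1* (232 and 191 CPM).

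Markers of other cells were set beside these results. For hepatocytes, 8 of 9 genes analysed were lower and 0 higher, and their summed CPM was 112075 to 133886 in controls and 49923 to 74743 in NASH. With library size alone, 3 hepatocyte genes were called and the list median moved from −0.64 to −0.17, while the macrophage genes called went from 5 to 9. *ALB* was present at 24044 CPM or more in each library. For cholangiocytes, 7 of 8 were higher, with summed CPM of 158 to 213 and 434 to 676. For portal fibroblasts, which can also become myofibroblasts, 6 of 11 were higher and 4 lower, with summed CPM of 205 to 250 and 217 to 271. *THY1* itself was not called (log2FC −0.23, SE 0.17, adjusted p = 0.283). *FBLN1* fell by 0.45 and *GREM1* fell by 1.31, with log2FC of −0.73 for *GLI1* and −0.83 for *GAS6*. *ENTPD2* was higher by 2.86, from 3 to 103 counts. Also higher were *PI16* (2.75), *MFAP4* (2.15), *DPT* (2.03), *FBLN2* (1.93) and *CD34* (1.297), and the list median was 1.297. *FBLN1* weighed most in the summed CPM, with means of 136 CPM in controls and 99.6 CPM in NASH. For endothelial cells, 4 of 10 were higher and 2 lower, with summed CPM of 586 to 794 and 651 to 928. For macrophages, 4 of 10 were higher and 1 lower, with summed CPM of 424 to 723 and 712 to 999. For T and B lymphocytes, 4 of 10 were higher and 1 lower, with summed CPM of 68.2 to 123 and 51.6 to 86.3. The lower gene, *CD3E*, weighed most in this sum, with means of 69.0 CPM in controls and 33.0 CPM in NASH. The higher ones were *CD8A* (1.29), *CD79A* (1.49), *CD79B* (1.62) and *MS4A1* (1.12). No hepatocyte, cholangiocyte, endothelial or lymphocyte gene was at 0 in any animal, while *TREM2* among the macrophage genes and *PI16* among the portal fibroblast genes were at 0 in some. Only 2 of 8 mesothelial genes (*KRT19*, higher, which also marks cholangiocytes, and *PKHD1L1*, not called) and 2 of 11 striated muscle genes (*TNNT1*, higher by 0.88, and *DES*) were analysed, so these cell types could hardly be assessed. The part of other cell types in the differences of the 9 genes was not tested.

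**Figure D5:**
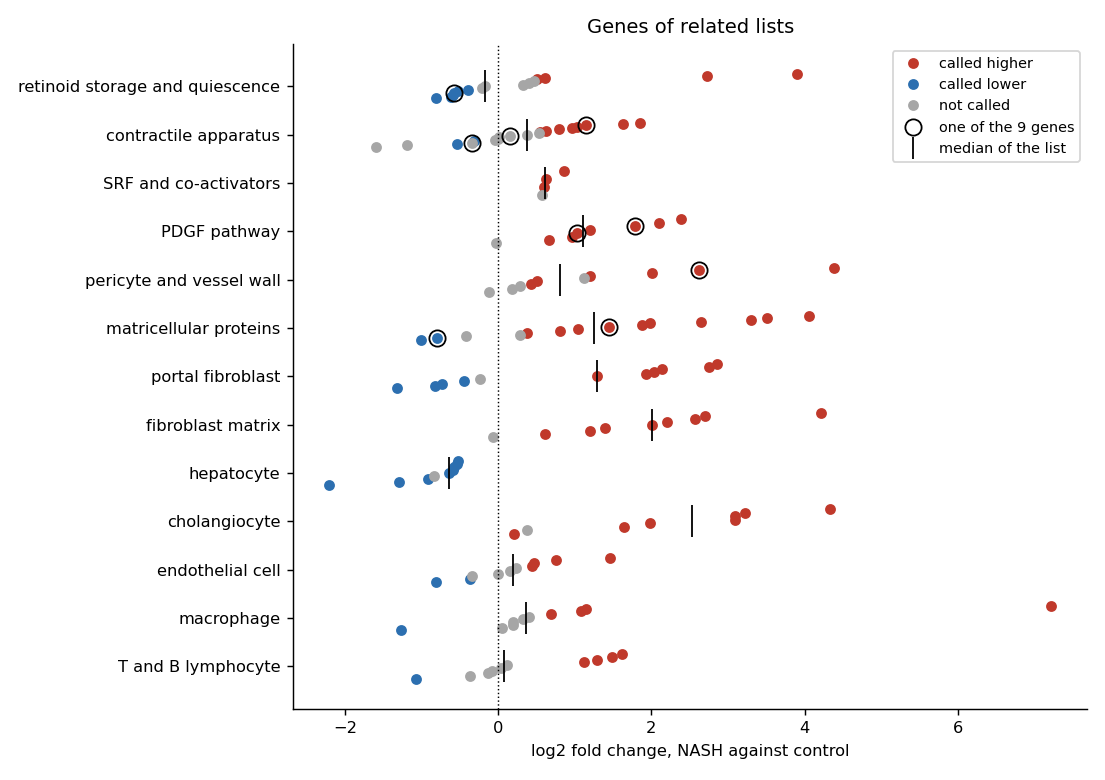
Log2FC of each analysed gene of 13 lists, with one point per gene, coloured by its call in edgeR; black rings mark the 9 genes and vertical bars the list medians. The PDGF, matricellular and fibroblast matrix lists lie mostly to the right of 0 (medians 1.12, 1.25 and 2.01), hepatocyte genes to the left (−0.64), and *LRAT*, *DES* and *POSTN* are the ringed genes left of 0.

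Finally, the animals of a group were compared by how far each gene deviated from its group mean in log2 CPM. These values are descriptions over 12 animals; within an animal, all genes share its library depth and tissue makeup. *TAGLN* and *DES* deviated together (Pearson's r 0.89, Spearman's rho 0.86, and r 0.89 without the 2 animals farthest from the median), with r of 0.90 in controls and 0.91 in NASH. *ACTA2* deviated with *TAGLN* (r 0.85, rho 0.85, 0.83 without 2 animals), with r of 0.94 in controls and 0.51 in NASH. *RGS5* and *SPARC* gave r 0.77 and rho 0.73, with r of 0.54 in controls and 0.85 in NASH. Without the 2 animals farthest in *RGS5*, r fell to 0.43, but leaving them out also narrows the range of *RGS5*. *LRAT* and *PDGFRB*, which moved in opposite directions between the groups, deviated together within them (r 0.77, rho 0.80, 0.63 without 2 animals; 0.65 in controls and 0.89 in NASH). *PDGFRA* and *PDGFRB* gave r 0.27 and rho 0.20 (0.43 without 2 animals; 0.05 in controls and 0.48 in NASH).

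Among all 11896 genes, those most like each of the 9 in this measure were listed. Picked as the highest of so many values over few animals, such r can be high by chance. How high was not tested, so these genes are given as a description and not as partners of the 9. *MYL9* was among the 3 most alike for each of *ACTA2* (r 0.90), *TAGLN* (0.94) and *DES* (0.90). *PTAR1* (0.91) and *MRVI1* (0.90) for *ACTA2*, *MRGPRF* (0.91) and *ABHD8* (0.89) for *TAGLN*, and the row that *SRSF1* shares with another symbol (0.91) for *DES* made up the remainder. For *SPARC* they were 3 collagens, *COL3A1* (0.95), *COL4A1* (0.91) and *COL1A2* (0.90). For *RGS5* they were *EPCAM*, *DUT* and *UGGT2* (each 0.90), *EPCAM* being on the cholangiocyte list. For *LRAT* they were *LARP6* (0.93), *OTUD5* (0.90) and *MYADM* (0.90), and for *PDGFRA* they were *LATS2* (0.91), *RNF152* (0.89) and *YLPM1* (0.88). *PDGFRB* was most like a row shared by *DNAAF3* and another symbol (0.96), and *STAT5B*, which also shares its row with another symbol, came next (0.87). *POSTN* had the loosest neighbours, *FOXA2* (0.86), *RIC3* (0.83) and *PLCB4* (0.83). Without the 2 farthest animals these were 0.69, 0.66 and 0.73. The values of *SPARC* were then 0.84, 0.81 and 0.75, those of *RGS5* 0.78, 0.78 and 0.76, and those of *PDGFRA* 0.84, 0.79 and 0.78, each in the order given, while the most alike genes of the other 5 gave 0.79 to 0.95.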

How the data were processed

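Liver mRNA of 6 NASH and 6 control guinea pigs was measured, each animal being a sample grouped by its label. Raw counts for StringTie loci and Ensembl genes were deposited by the authors, made with Trimmomatic 0.38.0, HISAT2 2.1.0 on Cavpor3.0 without multimapped reads, and StringTie 1.3.6 (versions per the submitters' processing notes). The authors also deposited log2 values from the rlog transformation of DESeq2 for human orthologue symbols with a total of at least 200 counts. Rows of the count table carry no symbol. They were paired by repeating the rlog transformation in DESeq2: 11896 symbols fell on 11031 of 39061 rows, with deviations of at most 8.4e-07, and 1515 symbols shared a row. No column was without a sample.

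Counts were fitted with edgeR 4.0.16 (TMM, glmQLFit with robust estimation, glmQLFTest) in R 4.3.3, with the whole table's total as library size and Benjamini-Hochberg adjustment over all symbols. The SE is the absolute log2FC over the square root of F, and log2 CPM used a prior count of 2. The procedure was tested on simulated data with 200 of 11031 genes changed, evenly up and down. It recovered 91.0% of the changed genes at 2-fold and 100% at 4-fold, and 4.5% of calls fell on unchanged genes. With nothing changed there were 0 calls. Far fewer genes changed there than were called here, so the simulation could not check the scaling. Alternatives were RLE and upper-quartile factors, library size alone, DESeq2 1.42.0, limma 3.58.1 (voom, and on rlog values), filterByExpr, fitting all rows that have any count, an adjusted p under 0.01, glmTreat at an absolute log2FC of 1, and each animal left out. The members and lists were chosen with earlier results of these data known. Named genes were the 9 members, the largest rise and fall and the first 3 genes of each list, and the 3 genes most alike; further genes of the lists were named after their values were seen. The genome of a RefSeq gene table differs from that of the files, so no coordinates are given. A listed gene is not reported here.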

Additional observations from a re-analysis of the deposited data

How the results depend on the processing

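No paired analysis was possible because the groups share no animal number. Over 22 alternatives per gene, *PDGFRB*, *RGS5* and *SPARC* stayed called and higher, and *TAGLN* stayed uncalled. Tested against an absolute log2FC of 1, which asks for a larger change, *LRAT* (−0.57), *ACTA2* (1.15), *PDGFRA* (1.03) and *POSTN* (−0.80) were no longer called, which left 3 of the 9 genes; over all genes this test called 1100 of 11896 (9.25%, against 53.9% above). In the lists, that test left 2 retinoid, 2 contractile, 0 SRF, 3 PDGF, 2 pericyte, 6 matricellular, 3 portal fibroblast, 6 fibroblast matrix, 5 cholangiocyte, 1 mesothelial, 1 hepatocyte, 1 endothelial, 1 macrophage, 1 lymphocyte and 0 striated muscle genes. With library size alone, *LRAT* (−0.10) and *POSTN* (−0.33) were no longer called and *DES* turned to 0.14, still uncalled, while 3 hepatocyte and 9 macrophage genes were called; the median of all genes moved by 0.48. Leaving out an animal changed no call among the 9 genes, of which 7 stayed called. The log2FC ranged from −0.62 to −0.52 for *LRAT*, 0.99 to 1.36 for *ACTA2*, 0.04 to 0.30 for *TAGLN*, −0.48 to −0.24 for *DES*, 0.99 to 1.09 for *PDGFRA*, 1.72 to 1.84 for *PDGFRB*, 2.48 to 2.69 for *RGS5*, −1.01 to −0.72 for *POSTN* and 1.29 to 1.53 for *SPARC*. The highest adjusted p of *ACTA2* was 0.0234, without NASH animal 2. On rlog values, which are shrunken, the differences of the log2 ratios were 1.42 for *PDGFRB* over *LRAT*, 0.42 for *PDGFRB* over *PDGFRA*, 0.66 for *ACTA2* over *TAGLN*, 0.98 for *ACTA2* over *DES*, −1.26 for *DES* over *PDGFRB* and 1.39 for *SPARC* over *POSTN*, all in the same direction as with CPM. In NASH animals alone the r of *ACTA2* was 0.51 with *TAGLN* and 0.42 with *DES*. Of the list medians, 25 moved and 290 did not move by more than the spread, mostly with library size alone or rlog values. Depth limits *RDH10*, *CNN1*, *RGS4* and *CD248*, at no more than 105 counts per animal, more than any of the 9 genes, the lowest of which had 170 counts.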
